A study of Mus musculus with 6 samples.

Results

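Serine-threonine and lipid kinases, together with the regulators and scaffolds that share their gene names, were examined in mouse brain for differences in isoform ratio between 2 alleles of *Nxf1*, which encodes the main export receptor for messenger RNA. Members were all alternative events whose gene name starts with Mapk, Map2k, Map3k, Map4k, Camk, Cdk, Prkc, Prkd, Pik3, Pip4k, Pip5k, Akt, Gsk3, Csnk, Stk, Dyrk, Mark, Nek, Wnk or Ttbk (with a number after Stk, Mark and Nek). The CaMKII genes were left out, as were events inside the region of chromosome 19 that carries CAST sequence around *Nxf1*. Of 204 events in 113 genes that matched by name, 18 belonged to CaMKII genes and 4 to *Mark2*, which lies in that region. This left 182 events in 108 genes, of 13002 events in 7788 genes in the whole table. Of the members, *Map4k2*, *Pik3ap1* and *Pip5k1b* lie elsewhere on chromosome 19, and none of them is among the events with wide ratios described here. Intensities were listed for 180 of them, and the alternative start of *Cdkl2* and one cassette of *Wnk1* had none. By name, 86 of the genes (142 events) were taken as catalytic and 22 (40 events) as regulators, adaptors or scaffolds. *Stk22s1*, now named *Tsks*, was counted with the first although it encodes a substrate of testis kinases.

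The animals were 3 *Nxf1* B6 homozygotes and 3 *Nxf1* CAST homozygotes of one B6.CAST congenic line, in which both genotypes share the C57BL/6J background and the CAST homozygotes carry a stretch of chromosome 19 from CAST around *Nxf1*. They formed 3 same-sex littermate pairs. Of the 2 pairs of females, one was aged 46 days and the other 23 days. In the 1 pair of males, the *Nxf1* B6 animal was aged 22 days and its *Nxf1* CAST littermate 23 days. Total RNA of each brain was hybridized to 1 MJAY array, an Affymetrix design with probe sets for exons and for the junctions between them. The CAST stretch holds genes other than *Nxf1*, and its effects cannot be told apart from those of *Nxf1* here. No agent was given to any animal.

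The deposited table lists, for each event, the summarized intensity of the exclusion probe sets and of the inclusion probe sets for arrays grouped as set A and set B. The intensities run from 43 to 13185 in arbitrary units, and depth in the sense of read counts does not apply. Neither set is tied to a genotype in the table. Its header lists controls ahead of experiments and places the mutant above the wild type in its ratio, so set B was likely *Nxf1* CAST, and values are given as set B against set A. The measure used for each event is a log2 ratio, namely the log2 of exclusion over inclusion intensity in set B minus the same in set A. A value above 0 means relatively more exclusion in set B. For alternative starts, ends and mutually exclusive exons the table does not say which form counts as included. An event was counted as past the threshold when its absolute log2 ratio exceeded 0.5, a 1.414-fold difference. Values per array were not analysed here, so no event has a spread between animals, a test or a p-value, and having so few arrays limits how precise each ratio is.

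Protein kinases move phosphate from ATP to their substrates, and most of those considered here act on serine and threonine. They are often arranged in relays, as in the MAP kinase cascade, where a MAP kinase is switched on by a MAP kinase kinase, which is itself switched on by a further kinase. Lipid kinases of the phosphoinositide group phosphorylate membrane lipids that recruit proteins such as Akt. Many of these genes have alternative exons or starts that remove regulatory domains, alter the part of the kinase that binds substrates or move the protein in the cell, and in neurons some of these forms serve synapses and axons.

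At the level of whole brain, the RNA carried the markers of the labelled tissue. Of 22 markers of brain cell types, 14 had an event on the array. The 5 neuronal genes among them reached intensities of 2675 to 12087, the astrocyte genes 1621 to 10330 and the oligodendrocyte genes 3266 to 11314. *Acta1*, the only muscle gene present, reached 353. The microglial genes (258 to 459) and *Pecam1* (405) lay near that value, so intensity did not set *Acta1* apart from them. The log2 difference of summed intensity between the sets was -0.03 for neurons, 0.05 for astrocytes (4 genes), -0.08 for oligodendrocytes (*Mag* and *Mbp*), 0.02 for microglia (*Csf1r* and *Itgam*) and -0.05 for endothelium (*Pecam1*). In such bulk RNA, fewer cells of a type and less RNA per cell cannot be told apart.

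Isoform ratios of the kinase events differed little between the sets. The median absolute log2 ratio was 0.17 over the 180 member events and 0.18 over all 12948 events with intensities, and 122 members (67.8%) lay under 0.25, against 65.7% of all events. The 90th percentile was 0.42 for members and 0.45 for all events. The widest member ratio was 0.75, in *Pip5kl1*, whereas the widest in the table was 2.13. In all, 12 of 180 member events (6.67%) passed the threshold, beside 950 of 12948 (7.34%) across the table. They fell in 12 of 108 genes (11.1%), beside 909 of 7766 genes (11.7%). A ratio above 0.5, toward exclusion in set B, was seen in 7 of the 178 members with an exclusion path (3.93%), where the table had 4.52%. A ratio below -0.5 was seen in 5 (2.81%), where the table had 2.72%. None of these shares stood clear of the background. Of the 178 members, 94 (52.8%) had a ratio above 0, beside 55.4% of all events.

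**Figure D1:**
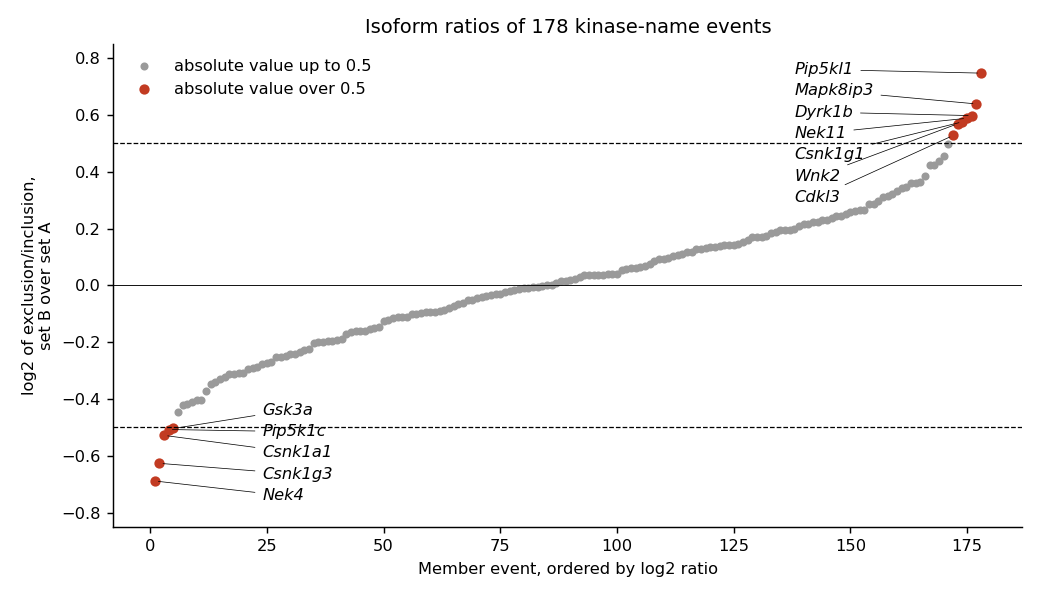
Log2 of the exclusion to inclusion ratio, set B over set A, for the 178 member events with a direction, placed in order along the horizontal axis. Dashed lines mark 0.5 and -0.5, and red points with gene names are the 12 events past them, 7 above and 5 below. Most points form a smooth slope through 0.

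Among the 12 events, 11 were in genes taken as catalytic by name and 1, in *Mapk8ip3*, was in a scaffold gene. A name does not establish that the product is an active kinase, and the 11 include the kinase-like *Pip5kl1*. By family, 3 of 12 casein kinase events, 2 of 10 Nek events and 2 of 27 phosphoinositide kinase events passed, beside 7.34% of all events. The others were 1 of 3 Dyrk events, 1 of 9 in the Akt and Gsk3 names, 1 of 11 in the Wnk and Ttbk names, 1 of 16 in the Cdk names and 1 of 56 in the MAP kinase cascade. These counts are too small to rank the families. In 9 of the 12 the exclusion and inclusion intensities moved in opposite directions between the sets, while in *Csnk1a1*, *Pip5k1c* and *Cdkl3* both moved the same way. Over all members with intensities, 70 of 180 (38.9%) had opposite directions, close to the 39.9% of all events. Since opposite directions widen a ratio, the higher share among the 12 follows in part from how they were chosen. Exclusion intensity moved further than inclusion intensity in 10 of the 12, the exceptions being *Dyrk1b* and *Nek11*. The same share over all events was not computed, so this count only describes the 12 and is not read as a trait of kinase events.

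**Figure D2:**
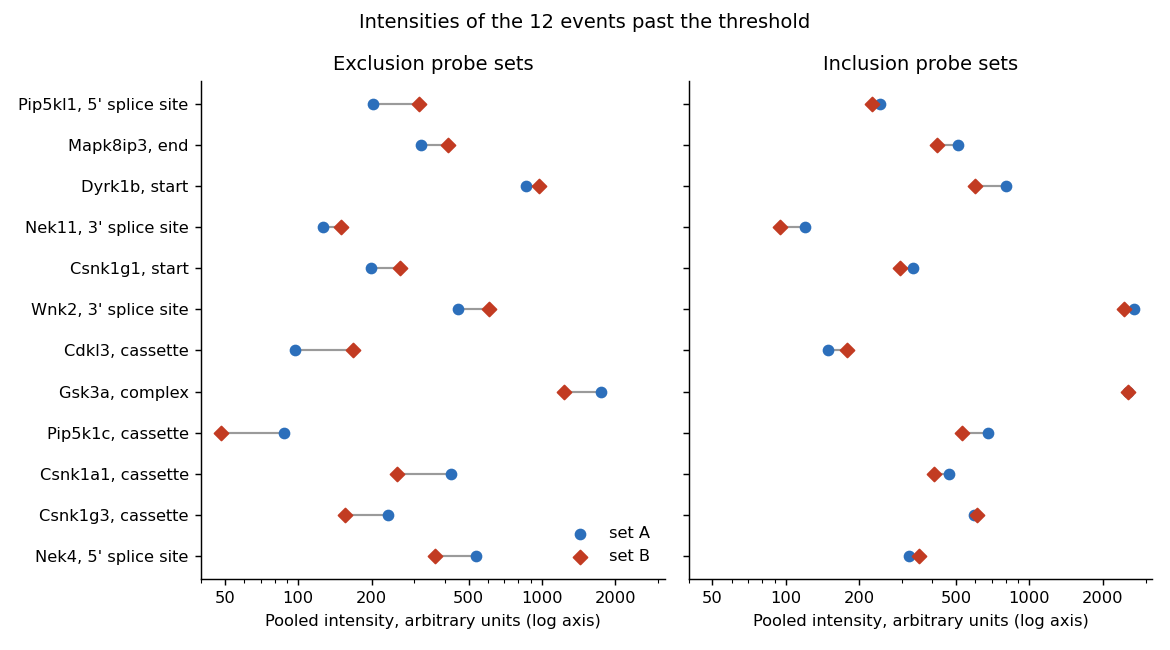
Pooled intensity (arbitrary units, log axis) of the exclusion probe sets (left) and inclusion probe sets (right) for the 12 events past the threshold, with set A as blue circles and set B as red diamonds. Events are ordered by log2 ratio, from *Pip5kl1* at 0.75 to *Nek4* at -0.69. Each point is 1 pooled value, so there are no error bars.

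In the casein kinases, 3 of 12 events passed the threshold, in *Csnk1g1*, *Csnk1g3* and *Csnk1a1*. The casein kinase 1 family phosphorylates many substrates without a second messenger, and its enzymes act in Wnt signalling and the circadian clock. *Csnk1g1* and *Csnk1g3* encode gamma enzymes that are tethered to the plasma membrane. For the alternative start of *Csnk1g1* (chr9:65756816-65806135, plus strand), exclusion intensity was 199 in set A against 262 in set B, and inclusion intensity was 334 and 295. The log2 ratio was 0.58, with exclusion higher and inclusion lower in set B. For the 96-nt cassette exon of *Csnk1g3* (chr18:54093179-54107722, plus strand), exclusion intensity was 233 in set A against 155 in set B, and inclusion intensity was 591 and 607. Its ratio of -0.63 points toward inclusion in set B and came almost wholly from the exclusion side. *Csnk1a1* encodes the alpha enzyme, which primes beta-catenin for destruction. Its 84-nt cassette exon (chr18:61729196-61735084, plus strand) had exclusion intensities of 423 in set A against 254 in set B, and inclusion intensities of 470 and 407. Both sides were lower in set B and exclusion more so, which gave a ratio of -0.53. A complex event of the same gene had a ratio of -0.33, again with both sides lower in set B (127 and 77 for exclusion, 692 and 527 for inclusion). The other casein kinase events were within the threshold. They included the 63-nt cassette and alternative end of *Csnk1d* (-0.02 and 0.03) and the alternative end of *Csnk1e* (-0.19), the delta and epsilon enzymes that act on clock proteins.

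Phosphoinositide kinases gave the widest member ratio. *Pip5kl1* encodes a relative of the kinases that make phosphatidylinositol bisphosphate. At its alternative 5′ splice site of 125 nt (chr2:32431414-32432170, plus strand), exclusion intensity was 202 in set A against 314 in set B, and inclusion intensity was 243 and 225. The ratio was 0.75, most of it from the exclusion side. *Pip5k1c* encodes the type I gamma kinase, which supplies phosphatidylinositol bisphosphate at synapses for the recycling of vesicles. Of its events, 2 list a 78-nt cassette exon and share the same upstream position, and whether the exon is the same in both is not stated. In the longer (chr10:80777863-80780510, plus strand) exclusion intensity was 87 in set A against 48 in set B, and inclusion intensity was 677 and 531, a ratio of -0.51. In the shorter (chr10:80777863-80780070) exclusion intensity was 520 in set A against 397 in set B, and inclusion intensity was 813 and 739, a ratio of -0.25. Both point toward inclusion in set B and both have every intensity lower in set B. The first sits at the edge of the threshold, because rounding of its low intensities allows any ratio from -0.53 to -0.48. *Pik3r1*, the main regulatory subunit of phosphoinositide 3-kinase, had a ratio of 0.00, and the 27 events of the group had a median absolute ratio of 0.16.

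Nek kinases, relatives of a fungal regulator of mitosis, act in the cell cycle, in cilia and in the response to DNA damage. *Nek4* had the lowest ratio of all members. At its alternative 5′ splice site of 106 nt (chr14:31764884-31767009, plus strand), exclusion intensity was 535 in set A against 365 in set B, and inclusion intensity was 321 and 353, which gave -0.69. Exclusion intensity was lower and inclusion intensity higher in set B. The other *Nek4* events, a 144-nt cassette and an alternative end, had ratios of 0.20 and -0.08, so the wide value belongs to a single event of the gene. *Nek11*, tied to the checkpoint that follows DNA damage, had a ratio of 0.59 at an alternative 3′ splice site of 78 nt (chr9:105295411-105297525, minus strand). Its exclusion intensity was 126 in set A against 150 in set B, and its inclusion intensity was 120 and 95, all near the dim end of the array.

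In the MAP kinase cascade, 1 of 56 events in 32 genes (1.79%) passed the threshold, beside 7.34% across the table. That event is the alternative end of *Mapk8ip3* (chr17:25031799-25035815, minus strand), which encodes JIP3, a scaffold for the JNK kinases that also links cargo to kinesin in axons. Exclusion intensity was 320 in set A against 411 in set B, and inclusion intensity was 508 and 419, for a ratio of 0.64. Exclusion was higher and inclusion lower in set B. The other 4 events of *Mapk8ip3* ranged from -0.25 to 0.09. One of them, a complex event, adjoins the alternative end at the same position and had a ratio of -0.25, with inclusion intensity of 778 in set A against 961 in set B.

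The JNK kinases themselves showed small ratios. *Mapk8*, *Mapk9* and *Mapk10* encode the JNK enzymes, of which the product of *Mapk10* is the form most tied to brain. *Mapk8* and *Mapk10* each have a pair of mutually exclusive 72-nt exons in the kinase domain. For *Mapk10* that event had exclusion intensities of 6161 in set A against 6521 in set B and inclusion intensities of 274 and 233, for a ratio of 0.32. For *Mapk8* they were 2185 and 1982, and 349 and 313, for a ratio of 0.02. Intensities of different probe sets do not rank the exons of a pair, so only the ratios between sets are read. All 3 events of *Mapk10* lay above 0 (0.20, 0.22 and 0.32), and the complex event of *Mapk9* had 0.17. Upstream of JNK, the 3 events of *Map2k7* lay between 0.04 and 0.27, and the 156-nt cassette of *Map3k4* had 0.32. For *Mapk14*, which encodes the p38 alpha kinase of the stress response, the mutually exclusive pair of 80-nt exons had a ratio of -0.06 and the alternative start had -0.29. None of these passed the threshold.

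*Gsk3a* and *Gsk3b* encode the glycogen synthase kinase 3 enzymes, which are inhibited by Akt and phosphorylate tau and beta-catenin. A complex event of *Gsk3a* (chr7:26013285-26022869, minus strand) had exclusion intensities of 1750 in set A against 1237 in set B, with inclusion intensities of 2537 and 2543. Its ratio of -0.50 is just past the threshold and comes almost wholly from the exclusion side. The alternative 3′ splice site of the same gene had a ratio of -0.04. For *Gsk3b*, whose 39-nt cassette gives a longer form of the kinase domain known from neurons, exclusion intensity was 3018 in set A against 2700 in set B and inclusion intensity was 1284 and 1226, a ratio of -0.09. Both sides were slightly lower in set B.

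Dyrk kinases phosphorylate themselves on tyrosine as they are made and their substrates on serine and threonine. For the alternative start of *Dyrk1b* (chr7:28964501-28966527, plus strand), exclusion intensity was 863 in set A against 971 in set B, and inclusion intensity was 803 and 597. Here the inclusion side moved further, and the ratio was 0.60. An alternative 3′ splice site of *Dyrk1b* had -0.05, and that of *Dyrk1a*, the relative studied in Down syndrome, had -0.01.

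Since 2 of the 12 events are alternative starts, promoter sequence of both genes is shown. The 250 bases before each start that RefSeq lists for *Dyrk1b* and *Csnk1g1* on GRCm38.p6 were read, written along the plus strand on which both genes lie. Capitals mark the GC box GGGCGG on either strand. The first start of *Dyrk1b* is preceded by chr7:28179233-28179482, the second by chr7:28180066-28180315, and the start of *Csnk1g1* by chr9:65908760-65909009.
*Dyrk1b*, first start: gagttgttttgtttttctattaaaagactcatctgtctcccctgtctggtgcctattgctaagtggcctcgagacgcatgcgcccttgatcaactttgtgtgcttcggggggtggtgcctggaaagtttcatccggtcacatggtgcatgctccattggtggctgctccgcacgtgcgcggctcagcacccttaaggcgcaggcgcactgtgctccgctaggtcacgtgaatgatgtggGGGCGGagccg
*Dyrk1b*, second start: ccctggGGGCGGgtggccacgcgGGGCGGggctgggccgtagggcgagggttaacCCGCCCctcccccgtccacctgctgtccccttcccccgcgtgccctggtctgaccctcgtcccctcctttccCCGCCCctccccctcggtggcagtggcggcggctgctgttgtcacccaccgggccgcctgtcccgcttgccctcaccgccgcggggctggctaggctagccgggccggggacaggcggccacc
*Csnk1g1*: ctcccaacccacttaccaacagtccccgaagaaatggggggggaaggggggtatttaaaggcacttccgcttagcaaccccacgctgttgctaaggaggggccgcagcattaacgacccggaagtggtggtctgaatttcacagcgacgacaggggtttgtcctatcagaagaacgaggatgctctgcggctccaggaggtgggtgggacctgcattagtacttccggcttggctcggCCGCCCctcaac
The *Dyrk1b* starts lie 833 bases apart. The window of the second held 4 GC boxes and 24 CpG dinucleotides with 77.6% G and C, whereas that of the first held 1 GC box and 15 CpG dinucleotides with 56.8%. The *Csnk1g1* window held 1 GC box and 13 CpG dinucleotides with 58.4%. Across all 32851 promoters of the same length, the median was 6 CpG dinucleotides and 52.4% G and C, and 32.7% held a GC box. The letters TATAAA were found in none of these windows and in 12.4% of all promoters, and CCAAT was found in the first *Dyrk1b* window (as its reverse complement, ATTGG) and in 33.8% of all, both strands being searched. The positions on the array follow an assembly that is not stated, so the starts could not be assigned to the exclusion or inclusion side.

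WNK kinases, named for a missing lysine, govern chloride cotransporters through other kinases. *Wnk2*, with 6 events, had 5 ratios above 0, spread from -0.09 to 0.57. The highest was at an alternative 3′ splice site of 35 nt (chr13:49173583-49174039, minus strand), where exclusion intensity was 452 in set A against 608 in set B and inclusion intensity was 2688 and 2437. Exclusion was higher and inclusion lower in set B. A 294-nt cassette of *Wnk2* had 0.36, with exclusion of 510 in set A against 621 in set B and inclusion of 2384 and 2259. *Wnk1*, whose forms differ between kidney and nervous tissue, had ratios of -0.34, 0.11 and 0.14. *Ttbk2*, a kinase of tau that is also needed for cilia, had -0.16 at its alternative start and 0.21 at its 74-nt cassette.

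The Cdk names gather cyclin-dependent kinases, their relatives and their inhibitors. Of their 16 events, 3 had a ratio above 0 (*Cdk4*, *Cdk2* and *Cdkl3*), which is 18.8% where the table had 55.4%, and 1 passed the threshold. No test was made of this share, and the family was singled out here after its values were seen. Rounding of intensities could carry *Cdkl2* (-0.007), *Cdk5rap3* (-0.007) and *Cdkn2aip* (-0.003) across 0. Several of the other events are alternative starts or ends, whose included form is not stated. *Cdkl3*, a cyclin-dependent kinase-like gene, had a ratio of 0.53 at its 74-nt cassette (chr11:51847113-51850932, plus strand). Exclusion intensity was 97 in set A against 168 in set B, and inclusion intensity was 149 and 179. Its alternative end (chr11:51840843-51847113) meets the cassette event at the same position and had a ratio of -0.45. Exclusion was 159 in set A against 136 in set B, and inclusion was 151 and 176. The included form of an alternative end is not stated, so its sign cannot be set against that of the cassette. All these intensities are low.

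Protein kinase C and D names (13 events) and calcium/calmodulin kinases (6 events) held no event past the threshold, beside 7.34% of all events. Groups this small cannot be told apart from that share. The only Prkd name present was *Prkdc* (0.26), which the rule takes by the start of its name. *Prkcz* encodes the atypical zeta enzyme, and an internal start gives brain a form without the regulatory domain. Its alternative start had exclusion intensities of 609 in set A against 517 in set B and inclusion intensities of 277 and 315, for a ratio of -0.42. That was the furthest of the 13 events in this group. *Prkcbp1*, now named *Zmynd8*, is a chromatin reader that binds protein kinase C. Its 6 events were split evenly about 0, between -0.24 and 0.22. Among the 6 calmodulin kinase events, the widest ratio was at the alternative end of *Camk1* (-0.42), with exclusion of 518 in set A against 504 in set B and inclusion of 180 and 234. *Camkk2*, which activates other calmodulin kinases, had 0.04 at its alternative end, and *Camk1d* had 0.12 and 0.24.

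**Figure D3:**
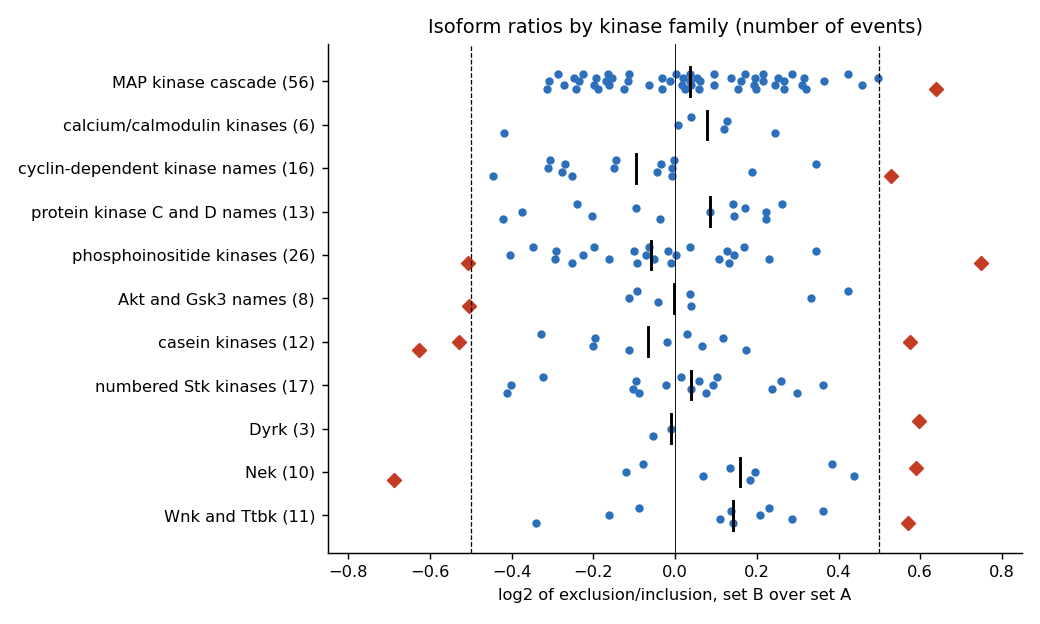
Log2 of the exclusion to inclusion ratio, set B over set A, for member events in 11 families by gene name, with the number of events with a direction in brackets. Each blue point is 1 event, red diamonds are the 12 past the dashed lines at 0.5 and -0.5, and black bars are medians. The families overlap over most of their range, and 8 of 11 have an event past the threshold.

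The median absolute ratio ran from 0.05 for the 3 Dyrk events and 0.10 for the 17 numbered Stk events to 0.21 for the Wnk and Ttbk names and 0.22 for the Cdk names. It was 0.19 in the MAP kinase cascade, 0.18 in the casein kinases and 0.11 in the Akt and Gsk3 names. Most families hold few genes, and some genes give several events, so these medians are a description. Catalytic genes had a median of 0.20 with 11 of 140 events (7.86%) past the threshold. Regulators and adaptors had 0.10 with 1 of 40 (2.50%). Over all events the median was 0.18 and 7.34% passed. With 1 regulator event past the threshold, these counts are too small to set the 2 groups apart.

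Most genes with 3 or more events had ratios on both sides of 0, and genes with fewer events were not counted in this way. Of the 17 genes with 3 or more events, 4 (*Aktip*, *Map2k7*, *Map4k4* and *Mapk10*) had every ratio on the same side of 0, in each case above it. The same share over all genes of the table was not computed. For starts, ends and mutually exclusive exons the included form is not stated, so a shared sign need not mean a shared change. *Stk11*, the LKB1 kinase upstream of AMPK, spanned -0.41 to 0.26, and *Mapk12*, a p38 kinase, spanned -0.24 to 0.42. In the 3 genes of this group with an event past the threshold (*Wnk2*, *Mapk8ip3* and *Nek4*), no second event passed it.

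**Figure D4:**
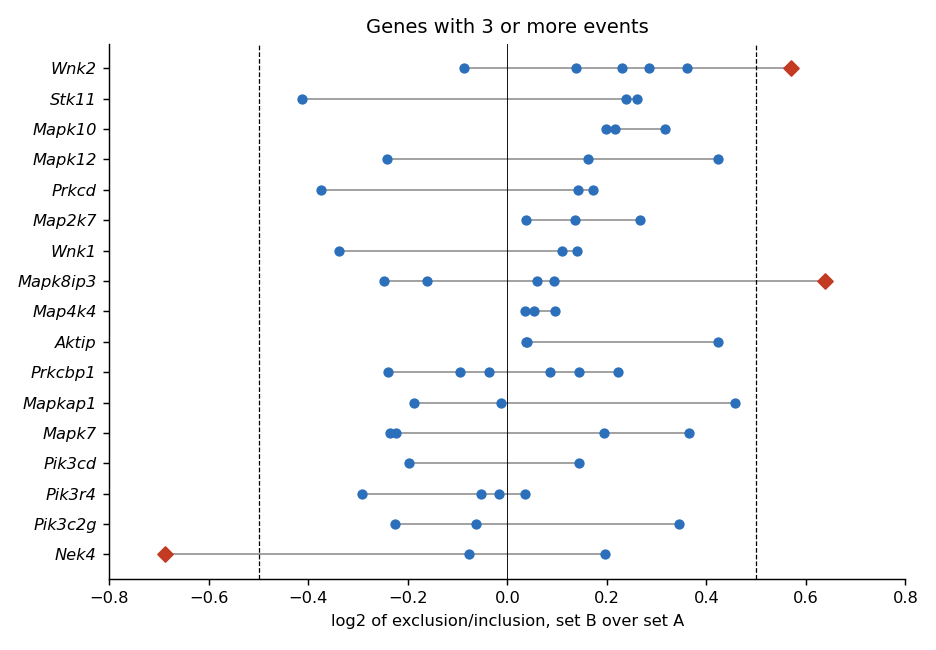
Log2 of the exclusion to inclusion ratio, set B over set A, for each event of the 17 member genes with 3 or more events, ordered by their median. Points of a gene are joined by a line, and red diamonds are events past the dashed lines at 0.5 and -0.5. Most genes have events on both sides of 0, and *Wnk2* has 5 of 6 above it.

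By type, members were much like the table. Cassette exons made up 24.2% of members and 29.0% of all events, alternative ends 20.3% and 19.5%, and alternative starts 17.0% and 17.4%. Past the threshold were 4 of 43 cassettes (9.30%, beside 8.56% of all cassettes), 2 of 30 starts (6.67%, beside 6.32%) and 1 of 37 ends (2.70%, beside 2.78%). Of the alternative 5′ splice sites 2 of 12 passed (16.7%, beside 10.8%), and of the 3′ splice sites 2 of 14 (14.3%, beside 9.11%). Of the complex events 1 of 19 passed (5.26%, beside 8.38%), and of the retained introns 0 of 17, beside 9.86% of all retained introns. Each of these types thus holds few members. Of the 43 cassette exons with intensities, 28 (65.1%) had a length divisible by 3, which keeps the reading frame, beside 53.4% of all cassettes. Of the 4 cassettes past the threshold, those of *Csnk1g3* (96 nt), *Csnk1a1* (84 nt) and *Pip5k1c* (78 nt) were divisible by 3 and that of *Cdkl3* (74 nt) was not.

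Next to the threshold lay a closely spaced set of events. Just past it were *Gsk3a* (-0.50), *Pip5k1c* (-0.51), *Cdkl3* (0.53), *Csnk1a1* (-0.53) and *Wnk2* (0.57). Just within it were the alternative start of *Map2k6* (0.50), which encodes an activator of the p38 kinases, a 90-nt event of *Mapkap1* (0.46), the alternative end of *Cdkl3* (-0.45), a 50-nt event of *Nek3* (0.44) and a 37-nt alternative 3′ splice site of *Aktip* (0.42). Rounding of intensities to whole numbers allows a ratio of 0.48 to 0.52 for *Map2k6*. Hence 1 event on each side could cross the threshold through rounding alone. Of the 12, *Pip5k1c*, *Nek11* and *Cdkl3* had an intensity under 100.

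Some events differed in level on both sides. The mean of the exclusion and inclusion log2 differences is used here as that level. It was highest in *Stk22s1*, at 0.57, from exclusion of 402 in set A against 614 in set B and inclusion of 700 and 1015, and the ratio of this event was 0.08. Next was the 74-nt cassette of *Cdkl3*, with a level of 0.53 and a ratio past the threshold (0.53). *Map4k1*, a kinase of blood cells, had levels of 0.38 and 0.33 with ratios of 0.29 and 0.27, and the alternative start of *Aktip* had a level of 0.37 with a ratio of 0.04. Lowest were the *Pip5k1c* event past the ratio threshold (-0.60) and both events of *Csnk1a1* (-0.56 and -0.47). The cassette of *Ttbk2* (-0.41) and a retained intron of *Prkce* (-0.37) followed. The other *Pip5k1c* event had a level of -0.26. Across the table, the 1st and 99th percentiles of this level were -0.40 and 0.44. Of the 12 events past the ratio threshold, those of *Pip5k1c*, *Csnk1a1* and *Cdkl3* lay outside these percentiles, the first pair at the low end and *Cdkl3* at the high end.

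**Figure D5:**
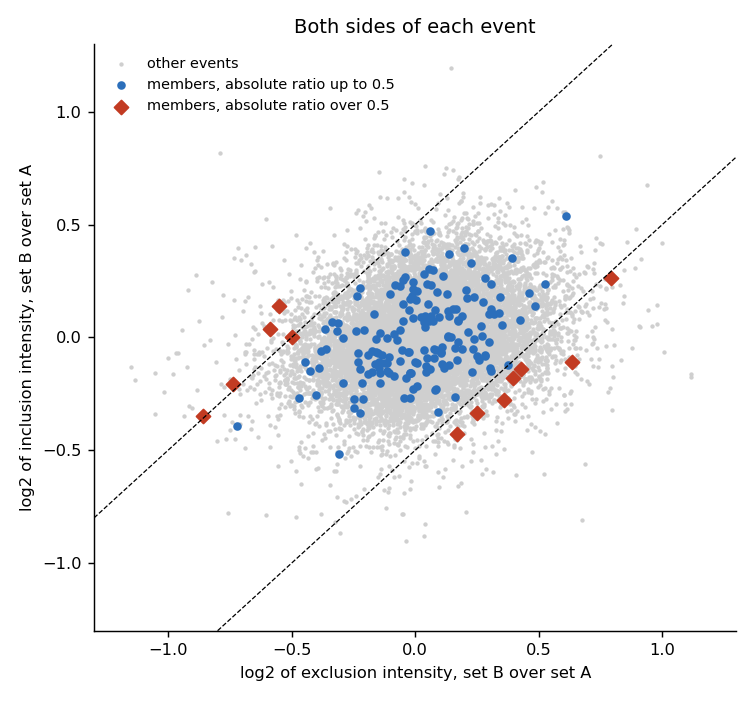
Log2 of inclusion intensity against log2 of exclusion intensity, both set B over set A, with members as blue circles, the 12 members past the threshold as red diamonds and all other events as grey points. Events outside the dashed lines have an absolute ratio over 0.5, and 7 other events lie outside the plotted range. Members spread over the same cloud as the other events. *Pip5k1c* and *Csnk1a1* lie to its lower left and *Cdkl3* to its upper right.

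Other genes of the same pathways gave similar counts. From the Ras to MAP kinase list, 14 of 23 genes had an event, and none of 25 events passed the threshold (median absolute ratio 0.19). From the list running from phosphoinositide 3-kinase to mTOR, 9 of 18 genes had an event and 1 of 22 events passed. That was the alternative end of *Sgk1*, a kinase close to Akt, with a ratio of -0.56 from exclusion of 455 in set A against 304 in set B and inclusion of 1205 and 1187. From a list of other serine-threonine kinases, 25 of 45 genes had an event and 3 of 53 events passed. They were a 44-nt cassette of *Tlk2* (0.52), the alternative start of *Srpk2* (0.53) and an alternative end of *Dclk2* (0.56). In the order of the lists the shares were 0%, 4.55% and 5.66%, beside 7.34% of the table. Lists this small cannot be told apart from that share.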

How the data were processed

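Total brain RNA of 6 animals was measured on 1 MJAY array each, and the submitters' processing notes name Affymetrix Power Tools. The authors deposited summarized exclusion and inclusion intensities as whole numbers, pooled over the arrays of set A and of set B. Background correction, normalization and genome assembly are not given in the sources used here. The authors' separation scores and q-values, for a paired and a standard comparison, are results of their own and were not used.

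From the deposited intensities of the paired comparison a log2 ratio was computed for each path, and paths with the same event name were merged. Each event took its path with the largest absolute ratio and the sign of its exclusion path, which 2 members lacked. Pooled values allowed no test. Named are events past the threshold, the 5 nearest it on each side, genes with the most events and a list of members with known brain isoforms. Members and lists were chosen with earlier results of these data known. Promoters and current names are from RefSeq (GRCm38.p6), where 104 genes matched by symbol and 4 by synonym. Alternatives were other thresholds, intensity filters, units, gene lists and centring. The ratio step was tested on simulated data. Computation used Python 3.11.15 with pandas 2.3.3, numpy 2.4.6, matplotlib 3.10.9 and scipy 1.17.1.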

Additional observations from a re-analysis of the deposited data

How the results depend on the processing

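Of 34 values recomputed under alternative settings, 30 stayed near the reported ones. The exceptions were as follows. With a threshold of 1 on the absolute log2 ratio, 0 members and 0 families passed, beside 0.224% of all events. With every intensity at 200 or more, 7 of 93 members passed (7.53%, beside 5.39% of all), and fewer events were counted. Counting paths gave 24 of 362 (6.63%, beside 7.06%), since an exclusion and an inclusion path mirror each other in each event. A threshold at the log2 of 1.4 gave 13 members (7.22%, beside 8.1% of all), and adding the CaMKII genes gave 14 of 198 (7.07%, beside 7.34%). Subtracting the table's median ratio (0.03) gave 11 (6.11%, beside 7.13%). Leaving out *Pip5k1c*, which rounding could carry over the threshold, also gave 11 (6.15%, beside 7.33%) and was added after the data were seen. Intensity filters leave out dim events, and 3 of the 12 have an intensity under 100. No paired analysis was possible because the intensities used were pooled over the arrays of each set, and for the same reason no pair could be left out in turn.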
